A study of Schizosaccharomyces pombe with 9 samples.

Results

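The nuclear genes of respiratory complexes III, IV and V were followed by RNA sequencing in the fission yeast Schizosaccharomyces pombe, in libraries enriched for poly(A) transcripts. They were all genes of the deposited tables whose symbol is cox, qcr or atp with a number, together with rip1, cyt1, cyc1, nde1 and nde2, leaving out genes of the mitochondrial genome. The rule found 48 of 5212 genes, and all 48 had enough counts to be tested, as did 5119 genes of the tables. By role they were 9 subunits of complex III, cytochrome c, 8 subunits of complex IV, 13 subunits of complex V, 2 alternative NADH dehydrogenases, 10 assembly factors of complex IV and 5 assembly factors of complex V. The study had 9 libraries in 3 groups of 3. The first group, E112K clr6-1, carried the E112K substitution in histone H2B together with the clr6-1 allele of clr6, which codes for a class I histone deacetylase, the second, E112K, carried the H2B substitution alone, and the third was WT. The design compares each mutant with WT, and E112K clr6-1 also with E112K. A strain with clr6-1 alone is not analysed here, so the part of clr6-1 is seen only on top of the H2B substitution. The sources used here give neither growth medium nor temperature.

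Complex III takes electrons from ubiquinol and hands them to cytochrome c, complex IV passes them from cytochrome c to oxygen, and both pump protons that drive ATP synthesis by complex V. Fission yeast has no proton-pumping complex I and instead feeds electrons from NADH into ubiquinone through single-protein dehydrogenases such as Nde1 and Nde2. Core subunits of complexes III, IV and V come from the mitochondrial genome, so their assembly joins products of both genomes. In yeasts, genes for respiratory proteins are known targets of a complex that binds the sequence CCAAT (Php2, Php3 and Php5 in fission yeast), and Php4 is known to join that complex and repress genes for iron-using proteins when iron is scarce.

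Stretches upstream of 5 genes are printed because they stand before rip1, which fell most in E112K clr6-1 against WT, before cyt1, qcr1 and cox4, the next to it in size, and before cyc1, whose change did not pass the test. Genes that rose are not among them. They were read from the ASM294v3 genome (RefSeq), 5′ to 3′ on the gene's strand, from the annotated gene start, because the authors' build is not named. Capitals mark CCAAT or its reverse complement ATTGG, and in rip1 the sequence TGACGT, a core known from Atf1-type factors. The first stretch lies on the minus strand at chrII:2290114-2290143, directly before the start of rip1 and inside an exon of ppa2. The stretch for cyt1 is at chrII:2073086-2073235 on the plus strand, that for qcr1 at chrII:2034900-2035049 on the minus strand, and that for cox4 at chrI:711085-711234 on the plus strand, each ending at the base before the gene start. The stretch for cyc1, at chrIII:1714505-1714534 on the plus strand, runs from base -117 to base -88 before the gene start and lies in an exon of SPCC191.06. Unlike the others it was set around matches, those at bases -107 and -102. It leaves out another, CCAAT at base -65, closer to the gene start.
rip1: aaaccagaggcagctTGACGTttcttcccc
cyt1: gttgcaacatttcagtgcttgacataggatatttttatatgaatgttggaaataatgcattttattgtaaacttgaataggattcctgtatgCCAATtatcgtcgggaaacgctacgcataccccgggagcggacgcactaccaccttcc
qcr1: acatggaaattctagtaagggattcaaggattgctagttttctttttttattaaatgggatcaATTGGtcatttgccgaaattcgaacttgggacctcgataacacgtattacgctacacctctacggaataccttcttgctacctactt
cox4: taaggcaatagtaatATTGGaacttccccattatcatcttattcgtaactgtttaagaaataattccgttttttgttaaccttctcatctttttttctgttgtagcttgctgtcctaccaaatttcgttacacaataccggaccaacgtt
cyc1: aaaggtaaacATTGGATTGGctcgccatgt
In the 250 bases before the gene start, CCAAT on either strand was present in 24 of the 48 genes (50%), against 1807 of 5112 protein-coding nuclear genes (35.3%). It was found in 7 of 9 complex III genes, 3 of 8 complex IV genes, 6 of 13 complex V genes and 6 of 15 assembly factor genes. The window of rip1 held none, nor did those of nde2, cox19 and cox20. The windows of atp16, atp4 and cox6, which fell in E112K clr6-1 against WT, held none either. Those of cox1101 and cox1102, which rose, held 2 matches each. TGACGT or its reverse complement ACGTCA stood in 3 of 48 windows (6.2%), against 5.5% of all windows, and CCCCTC or GAGGGG, a core known from Rst2-type factors, in 0 of 48 against 1.7%. These are matches of letters, and no binding was measured.

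Levels are given as CPM (TMM-normalized counts relative to library size), and differences as log2 fold changes with their standard error (SE). The SE was back-calculated, as the absolute log2 fold change divided by the square root of the quasi-likelihood F statistic. A gene is said to have risen or fallen where the adjusted p of edgeR's quasi-likelihood test (Benjamini-Hochberg over 5119 genes) was under 0.05. Libraries held 16469576 to 20013351 counts. Since the labels do not tie replicates to separate cultures, each p-value reflects the spread among these libraries alone, and that spread may be technical. The mutated H2B gene htb1 had 5435 ± 119 CPM in E112K clr6-1, 5131 ± 127 CPM in E112K and 1669 ± 43 CPM in WT, and clr6 had 119 ± 1.47 CPM in E112K clr6-1, 87.1 ± 1.77 CPM in E112K and 142 ± 7.08 CPM in WT (SD, n = 3 each). A transcript level does not check for a point mutation. E112K replicate 1 stood apart from the other E112K libraries: it was the lowest of the 3 for 30 of the 31 genes of complex III, IV and V subunits and cytochrome c, against 33.2% of all genes, and its median log2 deviation from the mean of the other E112K libraries over those 31 genes was -0.16. Results that turn on it are given with and without it.

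In E112K clr6-1 the subunit genes of all 3 complexes mostly fell below WT, while the assembly factor genes moved both ways. Of the 48 genes 34 fell and 4 rose against WT, where 42.0% of all genes tested fell and 41.7% rose. The 31 genes for subunits and cytochrome c held 26 of the falls and no rise, with a median log2 fold change of -0.67, against 0.00 over all genes. The 15 assembly factor genes held 7 falls and all 4 rises, with a median of -0.07. Those rises included cox1101 and cox1102, near-identical copies whose reads the counting could split. Falls of at least 1.5-fold were seen in 18 genes, 17 of them for subunits, where 11.1% of all genes fell that far. Leaving out each library in turn left 32 of the 34 falls and all 4 rises in every fit, the exceptions being atp15 and cox16.

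Set directly against E112K, the E112K clr6-1 libraries were again lower for nearly all subunit genes. Of the 48 genes 37 fell and 5 rose, where 38.6% of all genes fell and 40.2% rose. All 9 complex III genes, 6 of 8 complex IV genes and all 13 complex V genes fell, and the median over the 31 genes for subunits and cytochrome c was -0.51, against 0.01 over all genes. Falls of at least 1.5-fold were seen in 13 genes, where 8.69% of all genes fell that far, and a rise of that size in 1 gene, cox20, where 11.6% of all genes rose that far. The 5 rises and 34 of the 37 falls passed in every fit that left out 1 library. The exceptions were atp15 (adjusted p up to 0.118), atp25 (up to 0.154) and cox24 (up to 0.172). Without E112K replicate 1 the adjusted p was 0.0885 for atp25 and 0.0784 for cox24, while cyc1 and nde1 then passed as lower. These comparisons share the E112K clr6-1 libraries, so the counts are not independent of those against WT.

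E112K alone showed small changes in both directions. Of the 48 genes 15 rose and 15 fell against WT, where 37.6% of all genes rose and 38.9% fell, and the median was 0.00, against -0.01 over all genes. The range ran from -0.44 for atp16 to 0.50 for nde2, so no gene reached 1.5-fold, which 12.7% of all genes passed upward and 6.66% downward. The test was passed in every fit that left out 1 library by 9 of the 15 rises and 13 of the 15 falls. Without E112K replicate 1, 17 genes rose and 14 fell, where 36.1% of all genes rose and 38.6% fell.

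**Figure D1:**
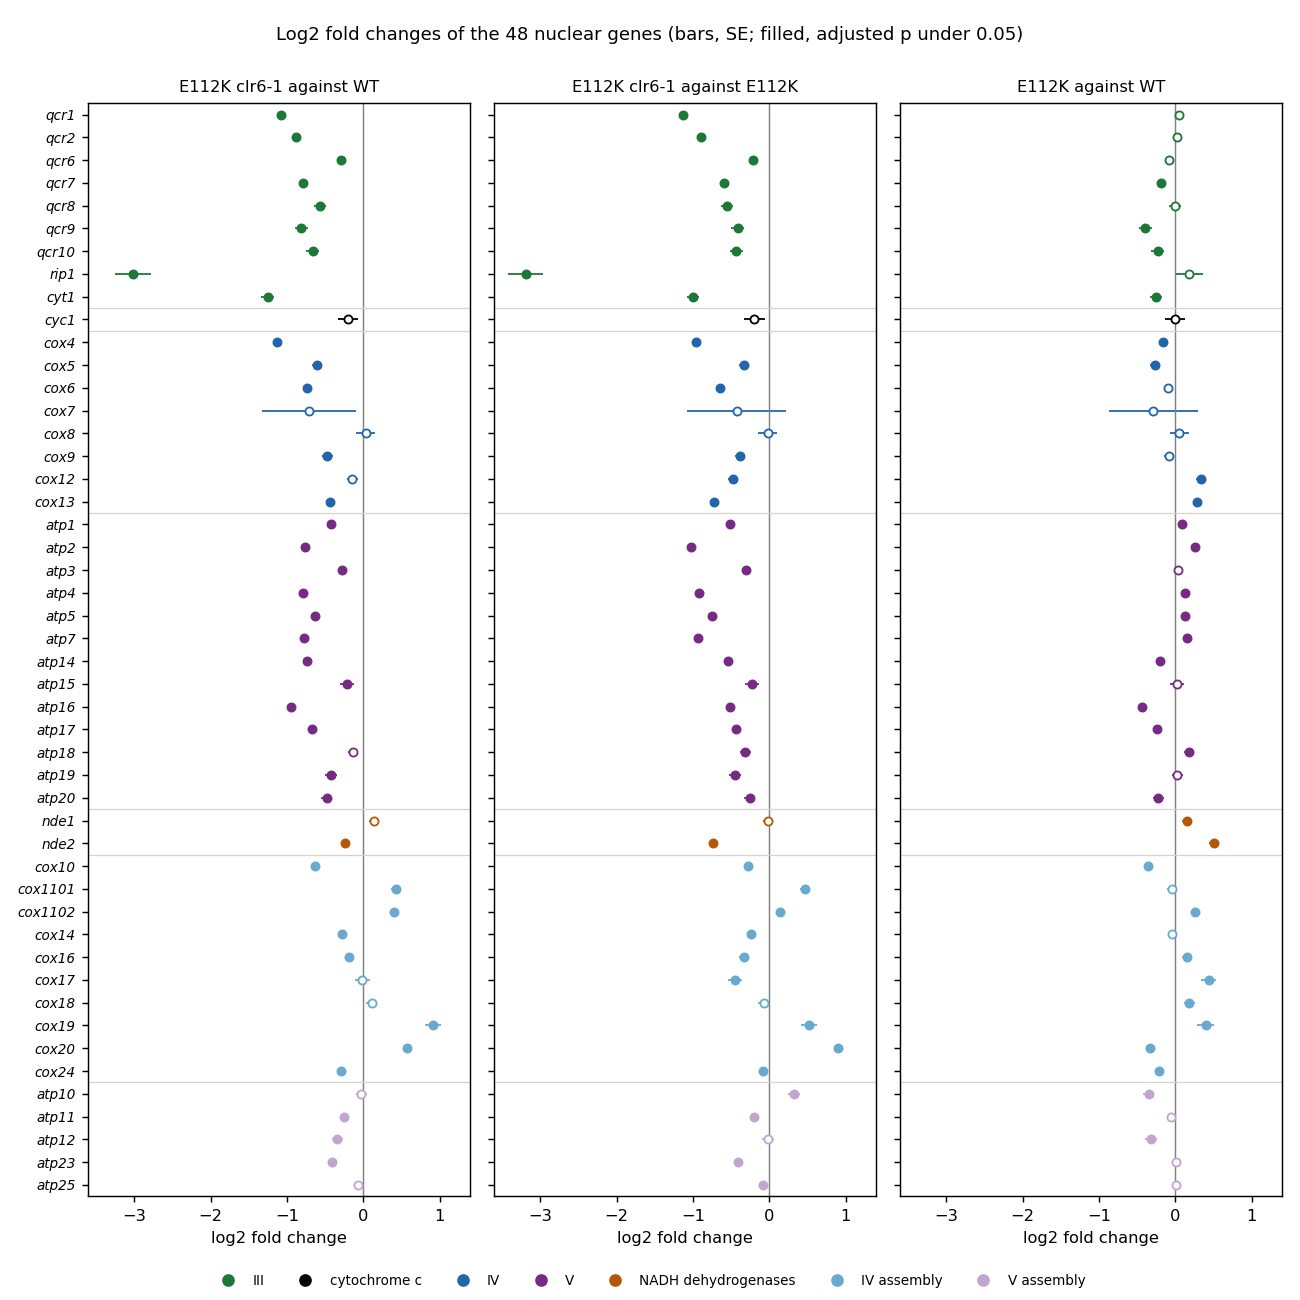
Log2 fold changes (horizontal axis) of the 48 genes, grouped by role, in E112K clr6-1 against WT, E112K clr6-1 against E112K and E112K against WT; bars are SE and filled points have an adjusted p under 0.05. Subunit genes lie left of 0 in the first and second panels, apart from cox8 in the first, with rip1 farthest at -3.02 and -3.19, and lie on both sides of 0 within -0.44 and 0.34 in the third.

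**Figure D2:**
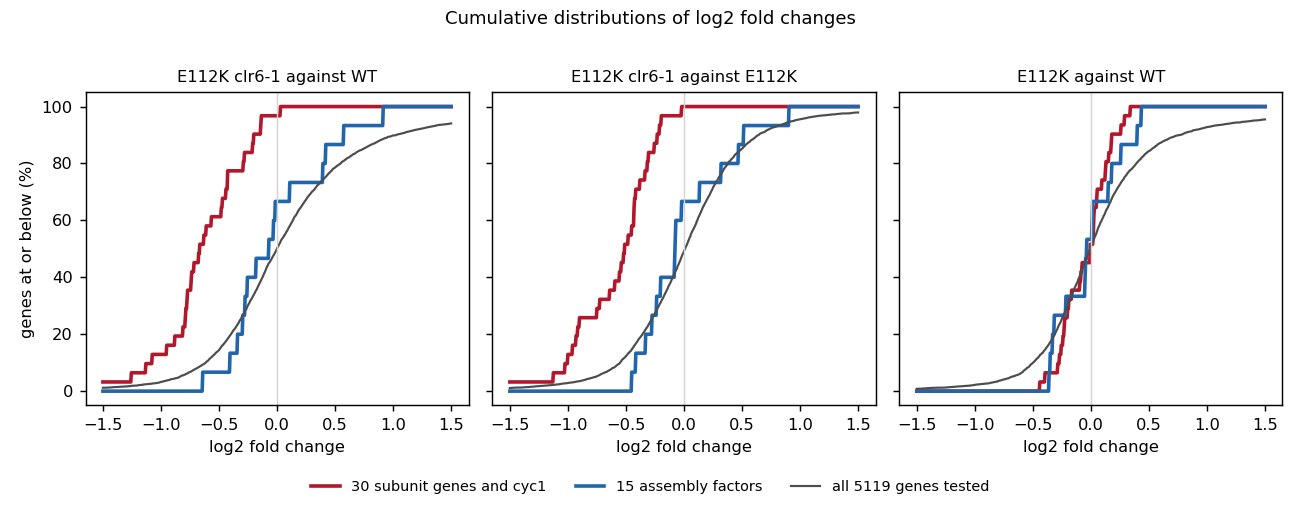
Percentage of genes at or below each log2 fold change for the subunit genes with cyc1, the 15 assembly factor genes and all 5119 genes tested, in the 3 comparisons. The curve of the subunit genes is displaced to lower values in both comparisons of E112K clr6-1, with medians of -0.67 and -0.51, and crosses that of all genes near 0 in E112K against WT.

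Summed over genes, the 9 complex III transcripts reached 1335 ± 13 CPM in E112K clr6-1, 2416 ± 256 CPM in E112K and 2526 ± 18.3 CPM in WT (SD, n = 3 each). The complex IV sum was 604 ± 12.2 CPM in E112K clr6-1, 890.5 ± 62.2 CPM in E112K and 923 ± 28.7 CPM in WT. The complex V sum was 2744 ± 5.86 CPM in E112K clr6-1, 4479 ± 178 CPM in E112K and 4188 ± 22.7 CPM in WT. In each complex the E112K clr6-1 libraries lay below all E112K and WT libraries. The E112K and WT libraries overlapped in complexes III and IV and did not in complex V. The lower E112K means of complexes III and IV turned on E112K replicate 1. For complex III it held 2121 CPM. E112K replicates 2 and 3 held 2578 and 2548 CPM, above every WT library (2506 to 2542 CPM). For complex IV it held 820.6 CPM. E112K replicates 2 and 3 held 910.8 and 940 CPM, within the WT range of 891.4 to 947 CPM. The complex IV assembly factors summed to 626 ± 2.07 CPM in E112K clr6-1, 589.9 ± 15.5 CPM in E112K and 593 ± 2.88 CPM in WT. Of the classes summed, only the complex IV assembly factors had the E112K clr6-1 libraries highest. Within that sum cox1101 and cox1102 together held 257 CPM in E112K clr6-1, 214 CPM in E112K and 194 CPM in WT. Their excess over WT was larger than that of the whole class, so the other genes of the class together averaged less in E112K clr6-1 than in WT. The complex V assembly factors summed to 374 ± 9.59 CPM in E112K clr6-1, 402 ± 10.4 CPM in E112K and 419.5 ± 9.04 CPM in WT. With 3 libraries against 3, an exact permutation test of such a sum cannot go below p = 0.1, so none is given. In bulk RNA, fewer cells that hold a transcript and less transcript per cell cannot be told apart.

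**Figure D3:**
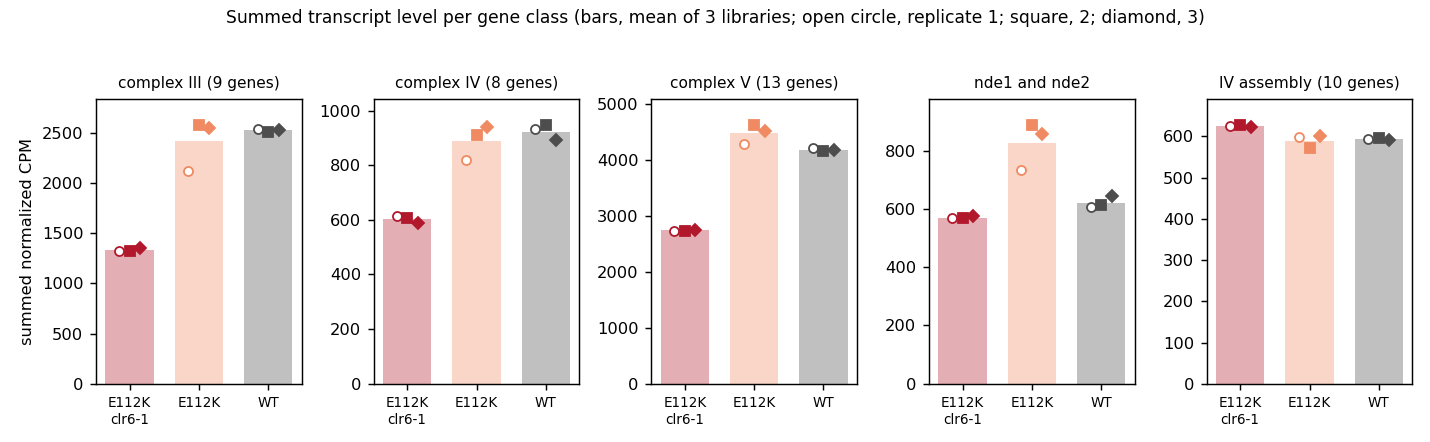
Summed CPM of complex III, complex IV, complex V, both NADH dehydrogenase genes and the complex IV assembly factor genes in E112K clr6-1, E112K and WT; bars are means of 3 libraries and marks are single libraries. The E112K clr6-1 libraries are the lowest in the first 4 panels and the highest in the last. The height of the last panel in E112K clr6-1 rests on cox1101 and cox1102. E112K replicate 1 (open circle) is the lowest E112K library in the first 4.

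Within complex III the Rieske protein, the iron-sulfur subunit that takes the first electron from ubiquinol, stood far from its partners. Its gene rip1 (SPBC16H5.06) had 10.3, 13 and 17.9 CPM in E112K clr6-1 replicates 1 to 3, 79.3, 147 and 145 CPM in the E112K replicates and 106, 110.2 and 115 CPM in the WT replicates. All E112K clr6-1 libraries lay far below the others, and the E112K libraries lay on both sides of WT. The gene was 8.11-fold lower in E112K clr6-1 than in WT (log2 fold change -3.02, SE 0.23, adjusted p = 5.66e-08) and 9.14-fold lower than in E112K (adjusted p = 4.60e-08). Its log2 fold change in E112K against WT was 0.17 (SE 0.18, adjusted p = 0.398), and without E112K replicate 1 it was 0.41 (adjusted p = 0.0015), past the test.

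The rip1 gene lies on the minus strand of chromosome II, and all of its exon bases fall within exons of ppa2, a protein phosphatase 2A catalytic subunit gene on the opposite strand. The sources used here do not say whether counting used strand, so reads of this pair may be shared. The level of ppa2 was 309 ± 4.89 CPM in E112K clr6-1, 364 ± 11.2 CPM in E112K and 376 ± 5.68 CPM in WT (SD, n = 3 each). It fell by 1.22-fold in E112K clr6-1 against WT (adjusted p = 1.93e-06), far less than rip1. On the other side of ppa2, SPBC16H5.08c had a log2 fold change of 0.04 (adjusted p = 0.478). On the other side of rip1, SPBC16H5.15, on the strand of rip1, rose by 2.51-fold (adjusted p = 3.96e-09), and cyp7, on the other strand, fell by 1.25-fold (adjusted p = 7.64e-07), so none of these 4 neighbours fell as far as rip1.

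The other redox subunit coded in the nucleus, cytochrome c1, fell less. Its gene cyt1 (SPBC29A3.18) had 180, 177 and 174 CPM in the E112K clr6-1 libraries, 292, 384 and 386 CPM in the E112K libraries and 419, 413 and 436 CPM in the WT libraries. The groups did not overlap, with WT highest and E112K replicate 1 lowest of its own group. The fall was 2.39-fold in E112K clr6-1 against WT (log2 fold change -1.25, SE 0.082, adjusted p = 9.91e-09), 2.0-fold against E112K (adjusted p = 1.42e-07) and 1.19-fold in E112K against WT (adjusted p = 0.0101).

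The core protein gene qcr1 (SPBP23A10.15c), which also codes for the processing peptidase subunit that trims imported precursors, had 353, 359 and 377 CPM in the E112K clr6-1 libraries, 708, 847 and 823 CPM in the E112K libraries and 772, 753 and 776 CPM in the WT libraries. E112K clr6-1 was lower than every other library, and the E112K libraries bracketed WT. The gene was 2.11-fold lower in E112K clr6-1 than in WT (log2 fold change -1.08, SE 0.056, adjusted p = 1.11e-09) and 2.18-fold lower than in E112K (adjusted p = 1.30e-09). Against WT its change in E112K was 0.05 on the log2 scale (SE 0.055, adjusted p = 0.444), and 0.12 without E112K replicate 1 (adjusted p = 0.00807). The second core protein gene, qcr2, fell by 1.85-fold in E112K clr6-1 against WT (adjusted p = 2.02e-10).

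The small subunits of complex III all fell in E112K clr6-1 against WT. The log2 fold changes were -0.81 for qcr9, -0.79 for qcr7, -0.67 for qcr10, -0.57 for qcr8 and -0.29 for qcr6, which codes for the acidic hinge protein and changed least of the 9 genes. Of these, qcr9, qcr10 and qcr7 also fell in E112K against WT, by 1.31-fold, 1.18-fold and 1.14-fold. The fall of qcr10 in E112K did not pass without E112K replicate 1 (adjusted p = 0.0632), without WT replicate 1 (adjusted p = 0.0935) or without WT replicate 2 (adjusted p = 0.0714). The qcr9 gene shares 81.8% of its exon bases with mcm3 on the opposite strand, and mcm3 itself had a log2 fold change of 0.07 in E112K clr6-1 against WT (adjusted p = 0.172).

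Because the genes differ in length, levels between genes are compared as the authors' FPKM. In WT the complex III transcripts ranged from 369.6 ± 3.09 FPKM for qcr1 to 86.1 ± 2.64 FPKM for rip1, a ratio of 4.29. In E112K the ratio was 3.95 with the same genes at the ends, although the WT and E112K orders differed in between. In E112K clr6-1 it was 22.3, from 234 ± 4.39 FPKM for qcr6 to 10.5 ± 2.88 FPKM for rip1. Below qcr6 in E112K clr6-1, qcr8 (171 ± 5.15 FPKM) and qcr1 (171 ± 4.96 FPKM) did not differ beyond their spread, nor did cyt1 (125 ± 2.93 FPKM), qcr2 (121 ± 3.27 FPKM) and qcr7 (118 ± 1.7 FPKM) from one neighbour to the next (SD, n = 3).

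**Figure D4:**
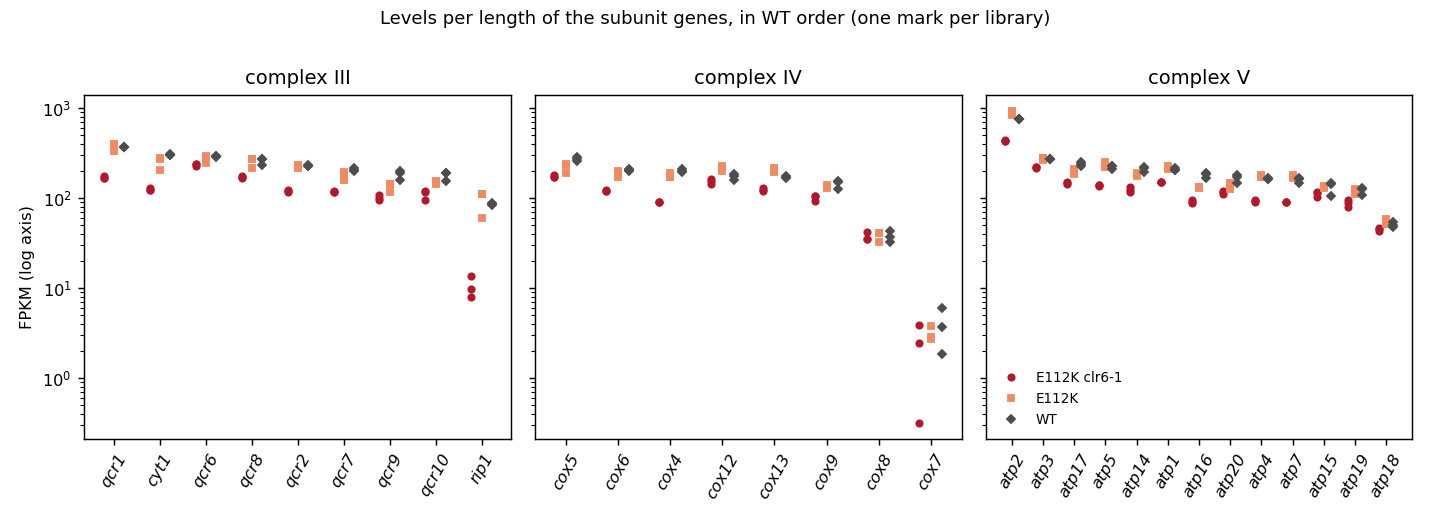
The authors' FPKM (log axis) of each subunit gene of complexes III, IV and V in the 3 libraries of E112K clr6-1, E112K and WT, with genes in the order of their WT mean. In complex III the E112K clr6-1 marks of rip1 average 10.5 ± 2.88 FPKM, far below the other subunits; in complex IV cox7 is low in every group, and in complex V atp2 is the highest and atp18 the lowest in every group.

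Cytochrome c, the mobile carrier between complexes III and IV, did not follow its partners at their size. The gene cyc1 (SPCC191.07) had 323, 349.8 and 335 CPM in the E112K clr6-1 libraries, 272, 459 and 422 CPM in the E112K libraries and 376, 384 and 401 CPM in the WT libraries. The E112K libraries spanned all others, with replicate 1 the lowest of the 9, and every E112K clr6-1 library lay below WT. The log2 fold change of cyc1 in E112K clr6-1 against WT was -0.20 (SE 0.13, adjusted p = 0.17), and in E112K against WT -0.01 (SE 0.13, adjusted p = 0.958). Without E112K replicate 1 the spread shrank: cyc1 then fell by 0.20 on the log2 scale in E112K clr6-1 against WT (adjusted p = 0.00062), fell by 0.39 in E112K clr6-1 against E112K (adjusted p = 7.21e-06) and rose by 0.19 in E112K against WT (adjusted p = 0.00273).

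Of the 8 nuclear subunit genes of complex IV, 5 fell in E112K clr6-1 against WT and none rose. Over all genes 42.0% fell and 41.7% rose. The structural subunit gene cox4 (SPAC1296.02) had 69.3, 69.8 and 69.6 CPM in the E112K clr6-1 libraries, 129.9, 133 and 144 CPM in the E112K libraries and 152, 155 and 149.9 CPM in the WT libraries. The 3 groups did not overlap, and the spread within E112K clr6-1 was under 1 CPM. It fell by 2.19-fold in E112K clr6-1 against WT (log2 fold change -1.13, SE 0.039, adjusted p = 1.86e-11) and by 1.12-fold in E112K against WT (adjusted p = 0.00114).

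The gene cox6 (SPAC1B2.04) had 120.1, 120.2 and 121 CPM in the E112K clr6-1 libraries, 172, 193 and 198 CPM in the E112K libraries and 203, 200.3 and 199 CPM in the WT libraries. E112K clr6-1 was lowest throughout, and every E112K library lay below WT. The fall was 1.67-fold in E112K clr6-1 against WT (log2 fold change -0.74, SE 0.044, adjusted p = 3.74e-09). The E112K value against WT was a log2 fold change of -0.10 (adjusted p = 0.0553), and it passed the test without E112K replicate 2 (adjusted p = 0.0419) or replicate 3 (adjusted p = 0.0138).

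The subunit gene cox13 (SPCC1739.09c) moved in opposite directions in the mutants. It had 92.3, 86.4 and 89.6 CPM in the E112K clr6-1 libraries, 140.5, 148 and 155 CPM in the E112K libraries and 119, 123 and 123 CPM in the WT libraries, and the groups did not overlap. It fell by 1.36-fold in E112K clr6-1 (adjusted p = 3.03e-07) and rose by 1.22-fold in E112K (adjusted p = 1.92e-05), each against WT. The gene cox12 likewise rose by 1.26-fold in E112K against WT (adjusted p = 0.000395), but its log2 fold change in E112K clr6-1 against WT was -0.14 (adjusted p = 0.0587). That value passed the test without E112K clr6-1 replicate 2 (adjusted p = 0.028), E112K replicate 1 (adjusted p = 0.0354) or WT replicate 3 (adjusted p = 0.018).

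The gene cox5 fell by 1.53-fold and cox9 by 1.39-fold in E112K clr6-1 against WT (adjusted p = 1.27e-06 and 2.96e-05). Neither of the remaining genes, cox7 and cox8, passed the test in any comparison. The gene cox7 (SPBC2F12.17) had only 0.70, 0.455 and 0.0581 CPM in the E112K clr6-1 libraries, 0.488, 0.52 and 0.673 CPM in the E112K libraries and 1.05, 0.329 and 0.664 CPM in the WT libraries, which stand for 1 to 21 counts. Its log2 fold change of -0.72 in E112K clr6-1 against WT had an SE of 0.61 (adjusted p = 0.289), so a change of the size seen in cox4 or cox6 was not detectable at this depth. The cox8 gene held 12.2 ± 1.34 CPM in E112K clr6-1, 12.4 ± 1.64 CPM in E112K and 12 ± 1.5 CPM in WT (SD, n = 3 each), and 99.6% of its exon bases lie within mvd1 on the opposite strand.

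Per length, cox5 had the highest mean of the complex IV transcripts in every group, at 174 ± 5.82 FPKM in E112K clr6-1, 221 ± 25.8 FPKM in E112K and 271 ± 13.4 FPKM in WT. In E112K it did not differ beyond the spread from cox12 (215 ± 15.5 FPKM) or cox13 (206 ± 11.2 FPKM), both of which stood above it in E112K replicate 1. Below it cox12 stood at 153 ± 10.3 FPKM in E112K clr6-1, next to cox5, and at 174 ± 14.5 FPKM in WT, below cox6 (206 ± 4.22 FPKM) and cox4 (202 ± 6.11 FPKM), which did not differ beyond their spread. The lowest by far was cox7, with 2.23 ± 1.8 FPKM in E112K clr6-1, 3.1 ± 0.572 FPKM in E112K and 3.84 ± 2.04 FPKM in WT (SD, n = 3 each).

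Of the 13 complex V genes 12 fell in E112K clr6-1 against WT, and all 13 fell against E112K. Over all genes 42.0% fell in the first of these comparisons and 38.6% in the other. The exception against WT was atp18, which codes for a small membrane subunit of F0 and had a log2 fold change of -0.14 (adjusted p = 0.083), past the test without WT replicate 2 (adjusted p = 0.0405). The fall of atp15, the epsilon subunit gene, was marginal (-0.21 on the log2 scale, adjusted p = 0.0467). Leaving out any library other than E112K clr6-1 replicate 2 or WT replicate 3 moved its adjusted p above 0.05, with values from 0.0531 (without E112K replicate 1) to 0.204. In E112K against WT, 6 genes of the complex rose and 4 fell, where 37.6% of all genes rose and 38.9% fell.

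The catalytic head of complex V, F1, is built from alternating alpha and beta subunits around gamma. The beta subunit gene atp2 (SPAC222.12c), which carries the catalytic sites, had 827, 829 and 854 CPM in the E112K clr6-1 libraries, 1607, 1791 and 1715 CPM in the E112K libraries and 1426, 1398 and 1459 CPM in the WT libraries. The groups did not overlap, with E112K highest. It fell by 1.71-fold in E112K clr6-1 against WT (adjusted p = 1.24e-09), rose by 1.19-fold in E112K against WT (adjusted p = 7.28e-05) and was 2.04-fold lower in E112K clr6-1 than in E112K (adjusted p = 1.60e-10).

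The alpha subunit gene atp1 fell by 1.35-fold in E112K clr6-1 against WT, with 734 ± 5.97 CPM in E112K clr6-1, 1054 ± 35.1 CPM in E112K and 989 ± 37.7 CPM in WT (SD, n = 3 each, adjusted p = 1.47e-07). Its rise in E112K of 0.09 on the log2 scale (adjusted p = 0.0339) was lost without E112K replicate 2 (adjusted p = 0.156), E112K replicate 3 (0.0515), WT replicate 1 (0.108) or WT replicate 2 (0.137). Of its exon bases 56.2% lie within abp1 and SPAC14C4.15c on the opposite strand. The gamma subunit gene atp3 fell by 1.22-fold in E112K clr6-1 against WT (adjusted p = 9.09e-07).

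The delta subunit gene atp16 (SPBC13E7.04), part of the central stalk, showed the largest fall of the complex against WT. It had 107, 102 and 102 CPM in the E112K clr6-1 libraries, 148, 149 and 146 CPM in the E112K libraries and 204, 208 and 189.9 CPM in the WT libraries. The groups were fully separate, with E112K between E112K clr6-1 and WT. The fall against WT was 1.93-fold in E112K clr6-1 (log2 fold change -0.95, SE 0.037, adjusted p = 6.27e-11) and 1.36-fold in E112K (adjusted p = 1.59e-07).

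The peripheral stalk holds the head in place. The gene atp4 (SPBC1604.07) had 154, 149 and 155 CPM in the E112K clr6-1 libraries, 277, 293 and 297 CPM in the E112K libraries and 262, 268 and 264 CPM in the WT libraries. The gene atp7 (SPBC29A10.13) had 74, 75.7 and 75.7 CPM in the E112K clr6-1 libraries, 137, 145 and 147 CPM in the E112K libraries and 134, 132 and 121 CPM in the WT libraries. In both genes E112K was the highest group and E112K clr6-1 the lowest, without overlap.
In E112K clr6-1 against WT atp4 fell by 1.73-fold (adjusted p = 1.03e-10) and atp7 by 1.72-fold (adjusted p = 2.02e-09). Both rose in E112K against WT, by 1.09-fold (adjusted p = 0.00258) and 1.11-fold (adjusted p = 0.00454). The third stalk gene, atp5, fell by 1.55-fold in E112K clr6-1 against WT (adjusted p = 3.21e-08) and rose by 1.09-fold in E112K (adjusted p = 0.023). The rise was lost without E112K replicate 2 (adjusted p = 0.0649), E112K replicate 3 (0.127) or WT replicate 3 (0.0981). The gene atp14, a stalk subunit gene in budding yeast, moved otherwise and fell in both mutants against WT, by 1.67-fold in E112K clr6-1 (adjusted p = 8.94e-09) and by 1.15-fold in E112K (adjusted p = 0.0015).

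The other complex V genes code for smaller subunits. Their log2 fold changes in E112K clr6-1 against WT were -0.68 for atp17, -0.48 for atp20 and -0.43 for atp19. The genes atp17 and atp20 fell in E112K against WT, as atp16 and atp14 did, by 1.18-fold and 1.17-fold. The fall of atp20 in E112K was lost without WT replicate 1 (adjusted p = 0.0614). The gene atp18 rose by 1.13-fold in E112K against WT (adjusted p = 0.0295), which was lost without E112K replicate 2 (adjusted p = 0.092), E112K replicate 3 (0.115), WT replicate 2 (0.116) or WT replicate 3 (0.0571). Per length, atp2 was the highest transcript of the complex and atp18 the lowest in every group, with a ratio between them of 9.7 in E112K clr6-1, 15.9 in E112K and 15.1 in WT.

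**Figure D5:**
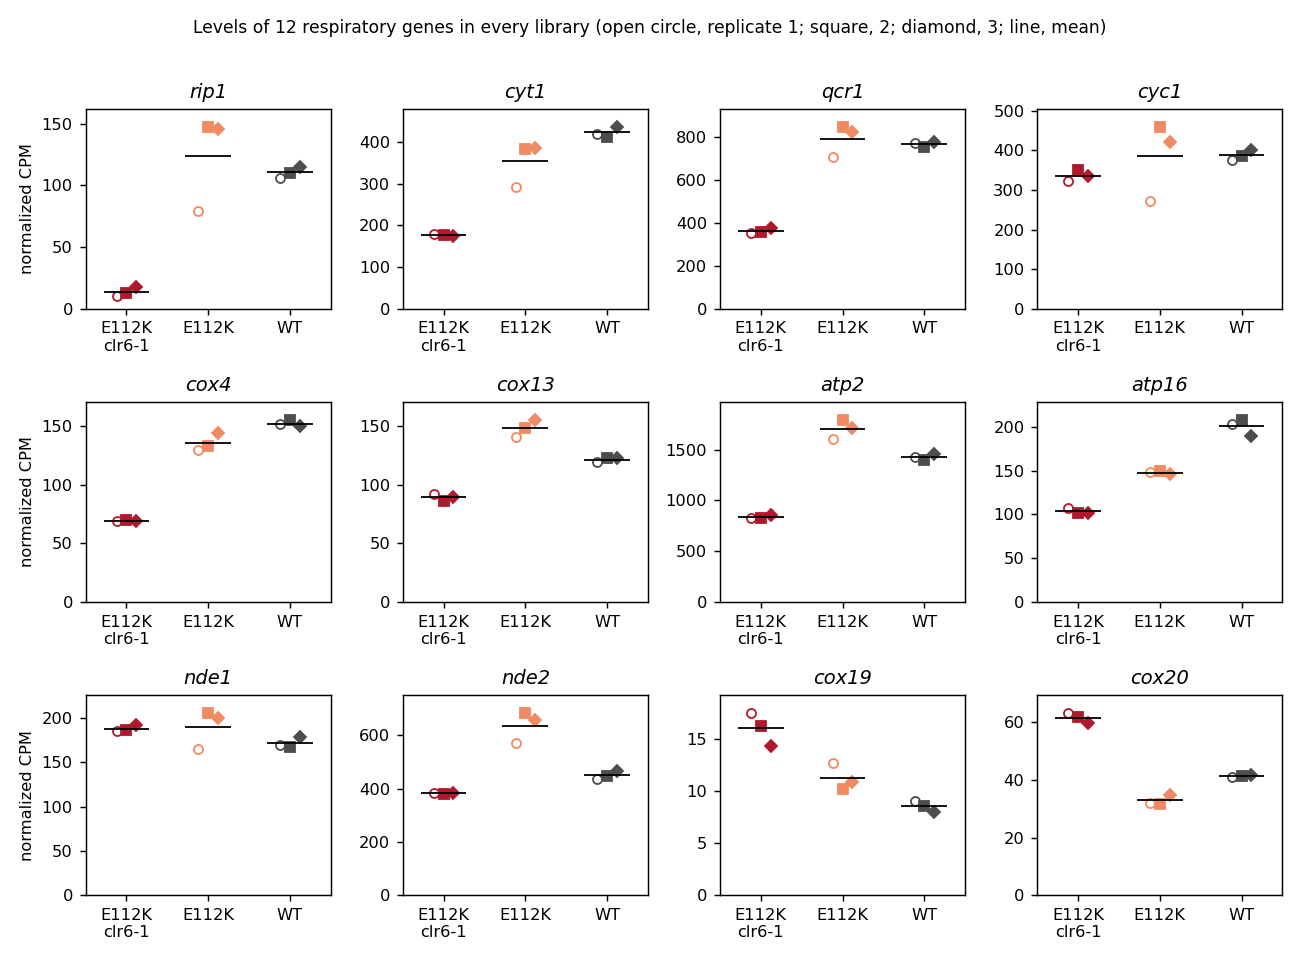
CPM of 12 genes in each library of E112K clr6-1, E112K and WT; marks are replicates 1 (open circle), 2 (square) and 3 (diamond), and lines are group means. E112K clr6-1 is lowest for rip1, cyt1, qcr1, cox4, cox13, atp2, atp16 and nde2 and highest for cox19 and cox20, and E112K replicate 1 lies below the other E112K libraries for rip1, cyt1, qcr1 and cyc1.

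Both NADH dehydrogenase genes stood higher in E112K than in WT. The gene nde2 (SPAC3A11.07) had 383, 381 and 382 CPM in the E112K clr6-1 libraries, 569, 682 and 655 CPM in the E112K libraries and 438, 446 and 466 CPM in the WT libraries. The groups did not overlap, with E112K highest and E112K clr6-1 lowest. It rose by 1.41-fold in E112K against WT (log2 fold change 0.50, SE 0.054, adjusted p = 2.25e-06), the largest rise of the 48 genes in that comparison, and fell by 1.18-fold in E112K clr6-1 against WT (adjusted p = 0.00131). Between the mutants it was 1.66-fold lower in E112K clr6-1 than in E112K (adjusted p = 5.37e-08).

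The gene nde1 (SPBC947.15c) had 186, 186 and 192 CPM in the E112K clr6-1 libraries, 165, 205 and 200.3 CPM in the E112K libraries and 169, 167 and 178 CPM in the WT libraries. Its E112K libraries spanned the other groups, while every E112K clr6-1 library lay above WT. The rise in E112K of 0.15 on the log2 scale was marginal (SE 0.063, adjusted p = 0.0424). It was lost in 7 of the 9 fits that left out 1 library, all but those without E112K replicate 1 or WT replicate 3, with adjusted p-values from 0.0528 to 0.206. In E112K clr6-1 against WT the log2 fold change was 0.13 (adjusted p = 0.0646), and 0.14 without E112K replicate 1 (adjusted p = 0.00136), past the test. It also passed without E112K replicate 2 (adjusted p = 0.042) and without WT replicate 3 (adjusted p = 0.0493). In E112K clr6-1 against E112K the log2 fold change of nde1 was -0.02 (adjusted p = 0.794), and without E112K replicate 1 it was -0.10 and passed the test (adjusted p = 0.0163). Per length, nde2 stood above nde1 in every group, at 151 ± 1.35 and 71.1 ± 1.19 FPKM in E112K clr6-1, 253 ± 23.1 and 72.3 ± 8.21 FPKM in E112K, and 182 ± 4.04 and 66.2 ± 1.4 FPKM in WT.

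The assembly factors of complex IV build cofactors into the enzyme and insert its subunits. They moved both ways in E112K clr6-1 against WT, with 4 of 10 genes higher and 4 lower. These counts were near the 41.7% and 42.0% of all genes. The 4 higher genes included cox1101 and cox1102, near-identical copies whose reads the counting could split, so they may not be independent. The gene cox19 (SPCC1672.04c), known in budding yeast as a copper-linked factor of the intermembrane space, had 17.5, 16.3 and 14.4 CPM in the E112K clr6-1 libraries, 12.7, 10.2 and 10.9 CPM in the E112K libraries and 9.04, 8.61 and 7.97 CPM in the WT libraries. The groups did not overlap. It rose by 1.88-fold in E112K clr6-1 (log2 fold change 0.91, SE 0.11, adjusted p = 3.76e-06) and by 1.32-fold in E112K (adjusted p = 0.00628), each against WT. It was the only one of the 48 genes to rise by at least 1.5-fold against WT in E112K clr6-1, as 18.6% of all genes did.

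The gene cox20 (SPBC25H2.18), which codes for a chaperone of Cox2, had 62.9, 61.8 and 59.5 CPM in the E112K clr6-1 libraries, 32, 31.7 and 34.8 CPM in the E112K libraries and 41, 41.2 and 41.8 CPM in the WT libraries. E112K clr6-1 was the highest group and E112K the lowest, an order opposite to that of nde2 or atp2. It rose by 1.49-fold in E112K clr6-1 against WT (log2 fold change 0.57, SE 0.048, adjusted p = 1.38e-07) and fell by 1.26-fold in E112K against WT (adjusted p = 6.12e-05). Between the mutants it was 1.87-fold higher in E112K clr6-1 (adjusted p = 3.28e-09).

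The gene cox10 (SPBC365.02c), for the first step from heme B to the heme A of complex IV, fell in both mutants. It had 31.5, 31.8 and 29.1 CPM in the E112K clr6-1 libraries, 37.9, 36.2 and 37.9 CPM in the E112K libraries and 48.8, 48.1 and 47.1 CPM in the WT libraries, without overlap. It fell by 1.56-fold in E112K clr6-1 (log2 fold change -0.64, SE 0.050, adjusted p = 6.94e-08) and by 1.29-fold in E112K (adjusted p = 1.98e-05), each against WT.

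Both copies of the copper-insertion factor Cox11, fused to a mitoribosomal protein in fission yeast, rose in E112K clr6-1. The transcripts of cox1101 and cox1102, annotated on chromosome I, are 2337 bases each and identical at 2334 of them (99.87%), so the counting could split reads between them and their single values are uncertain. Together they held 254, 259 and 258 CPM in the E112K clr6-1 libraries, 221, 207 and 213 CPM in the E112K libraries and 192, 189 and 202 CPM in the WT libraries. The sums did not overlap, with E112K clr6-1 highest and WT lowest, and averaged 257 ± 2.39 CPM in E112K clr6-1, 214 ± 6.91 CPM in E112K and 194 ± 6.96 CPM in WT (SD, n = 3 each). As counted singly, cox1101 rose by 1.34-fold and cox1102 by 1.31-fold in E112K clr6-1 against WT (adjusted p = 4.37e-05 and 1.26e-06).

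Among the other complex IV factors, cox24, known in budding yeast for the maturation of COX1 messenger RNA, fell by 1.23-fold in E112K clr6-1 against WT (adjusted p = 1.60e-06) and cox14 by 1.21-fold (adjusted p = 0.000143). The gene cox24 also fell in E112K against WT, by 1.16-fold (adjusted p = 4.05e-05). The gene cox16 had a log2 fold change of -0.18 in E112K clr6-1 (adjusted p = 0.0151) and 0.15 in E112K (adjusted p = 0.0442), each against WT. The first was lost without E112K clr6-1 replicate 2 (adjusted p = 0.0709) or WT replicate 1 (0.0657). The second was lost in 5 of the 9 fits that left out 1 library, with adjusted p-values from 0.0568 to 0.159, the highest without E112K replicate 1. The copper chaperone gene cox17 rose by 1.35-fold in E112K against WT (adjusted p = 0.00103), with a log2 fold change of -0.02 in E112K clr6-1 against WT (SE 0.099, adjusted p = 0.872). The membrane insertion gene cox18 had a log2 fold change of 0.18 in E112K against WT (adjusted p = 0.0387), lost in 5 of the 9 such fits with adjusted p-values from 0.052 to 0.189. Its value in E112K clr6-1 against WT was 0.10 (adjusted p = 0.194), past the test without WT replicate 2 (adjusted p = 0.0251).

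Of the 5 assembly factor genes of complex V, 3 fell and none rose in E112K clr6-1 against WT. Over all genes 42.0% fell and 41.7% rose. The gene atp23 (SPCC320.12), for a peptidase of the intermembrane space, had 48.3, 48.3 and 47 CPM in the E112K clr6-1 libraries, 67.1, 59.8 and 65.1 CPM in the E112K libraries and 61.8, 65 and 64 CPM in the WT libraries. E112K clr6-1 lay below all other libraries, and E112K and WT overlapped. It fell by 1.33-fold in E112K clr6-1 against WT (log2 fold change -0.41, SE 0.050, adjusted p = 5.10e-06).

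The F1 chaperone genes are atp11, whose product binds the beta subunit, and atp12, whose product binds the alpha subunit. The gene atp12 (SPAC9.12c) had 37.6, 35.2 and 40.6 CPM in the E112K clr6-1 libraries, 41, 34.5 and 39.7 CPM in the E112K libraries and 48.9, 50.8 and 43.8 CPM in the WT libraries. The gene atp11 (SPAC3A12.12) had 48, 46.1 and 46.6 CPM in the E112K clr6-1 libraries, 54.3, 55.5 and 52.1 CPM in the E112K libraries and 56.8, 54.5 and 56.5 CPM in the WT libraries. For atp12 both mutants lay below WT, and for atp11 only E112K clr6-1 lay below all WT libraries.
Against WT, in E112K clr6-1, atp12 fell by 1.27-fold (adjusted p = 0.00112) and atp11 by 1.19-fold (adjusted p = 0.000136). In E112K against WT atp12 fell by 1.25-fold (adjusted p = 0.0022), and atp11 had a log2 fold change of -0.05 (adjusted p = 0.285). The F0 assembly gene atp10 fell by 1.28-fold in E112K against WT (adjusted p = 0.000745) and was 1.25-fold higher in E112K clr6-1 than in E112K (adjusted p = 0.00146), against the direction of its class. Its log2 fold change in E112K clr6-1 against WT was -0.03 (adjusted p = 0.695). For atp25 that value was -0.07 (adjusted p = 0.0594), past the test without E112K clr6-1 replicate 1 (adjusted p = 0.0496) or WT replicate 3 (adjusted p = 0.0171). Opposite-strand genes cover 99.2% of the exon bases of atp10 (gos1), 78.3% of those of atp12 (SPAC9.11) and 53.4% of those of atp25 (dbp10), and dbp10 itself rose by 2.38-fold in E112K clr6-1 against WT.

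In E112K clr6-1 against WT the authors' deposited table gave 33 of the 48 genes as lower and 4 as higher (FDR under 0.05). Over all genes it gave 35.6% as lower and 31.7% as higher. Unlike in the fit used here, cyc1 was among the lower genes there (authors' FDR 0.00203). The genes atp15 and cox16 were not (authors' FDR 0.219 and 0.0758). For E112K against WT the authors' deposited table had 11 lower and 3 higher, where 35.3% of all genes were lower and 22.7% higher. Those 3 were nde2, cox12 and cox17. None of the other rises in E112K passed there. Those of cox13, atp2, cox19, atp4, atp7 and atp5 had an authors' FDR of 0.0683, 0.0945, 0.108, 0.698, 0.596 and 0.75. The falls in E112K of cyt1, qcr7, cox5 and atp20 did not pass there either (authors' FDR 0.114, 0.13, 0.0586 and 0.117).

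Electrons also enter the chain through succinate dehydrogenase, whose 4 genes lie outside the set above. All 4 fell in both mutants against WT, and between the mutants only sdh3 passed the test, higher in E112K clr6-1 (adjusted p = 0.0142). The gene sdh1 had 518 CPM in E112K clr6-1, 473 CPM in E112K and 979.6 CPM in WT, and sdh2 had 249 CPM in E112K clr6-1, 206 CPM in E112K and 568 CPM in WT. The gene sdh3 had 178 CPM in E112K clr6-1, 145 CPM in E112K and 315 CPM in WT. Of 11 tested genes of coenzyme Q synthesis, which makes ubiquinone, 3 rose and 8 fell in E112K clr6-1 and 1 rose and 9 fell in E112K, each against WT. The hydroxylase gene coq6 was at 74.2 CPM in E112K clr6-1, 86.3 CPM in E112K and 140.1 CPM in WT, while dps1, a subunit gene of the enzyme that makes the isoprenoid tail, was at 136 CPM in E112K clr6-1, 62.3 CPM in E112K and 80.8 CPM in WT. Of 7 tested genes of heme synthesis, 1 rose and 5 fell in E112K clr6-1 and 6 fell in E112K, each against WT. The coproporphyrinogen oxidase gene hem13 was at 249 CPM in E112K clr6-1, 242 CPM in E112K and 1107 CPM in WT.

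Of 21 tested assembly and expression factors with other symbols, 4 rose and 13 fell in E112K clr6-1 and 7 rose and 9 fell in E112K, each against WT. Over all genes 41.7% rose and 42.0% fell in E112K clr6-1, and 37.6% rose and 38.9% fell in E112K. These shares also stand beside the counts against WT for succinate dehydrogenase, coenzyme Q synthesis and heme synthesis. The complex IV assembly gene shy1 rose by 2.61-fold in E112K clr6-1, with 172 CPM in E112K clr6-1, 69.8 CPM in E112K and 66 CPM in WT (adjusted p = 1.22e-12 against WT). Of the genes for CCAAT-binding proteins, php4 rose in both mutants against WT, with 120.5 ± 3.25 CPM in E112K clr6-1, 134 ± 1.17 CPM in E112K and 69.9 ± 3.94 CPM in WT (SD, n = 3 each), and was 1.11-fold lower in E112K clr6-1 than in E112K (adjusted p = 0.00319). The genes php2 and php5 fell in both mutants against WT, while php3 fell in E112K clr6-1 (adjusted p = 0.0264) and had a log2 fold change of 0.05 in E112K (adjusted p = 0.659). The part of these genes in the levels of the respiratory genes was not tested. All listed genes of the mitochondrial genome together took 0.00029% to 0.0026% of the counts in these oligo(dT)-selected libraries. Only 4 of the 7 that code for partners in complexes III to V could be tested. The levels of these partners are therefore not set beside those of the nuclear genes.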

How the data were processed

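Per the labels' protocols, mRNA was enriched by oligo(dT) and sequenced in 9 libraries, 3 each of E112K clr6-1, E112K and WT, grouped from the labels alone. Tools named in the submitters' processing notes, with no version or role, are DESeq2, RSEM, StringTie, HISAT2, Bowtie2 and fastp. The sources used here give no genome build, annotation or counting strand. The deposited tables hold, per the file headers, a whole-number count per gene and library, and the authors' FPKM, used here only to compare levels between genes. Their log2 fold changes, p-value and FDR columns are the authors' own and serve only to describe the authors' deposited table. FPKM was proportional to counts within 10.9% over 4661 well-covered genes.

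Counts were fitted with edgeR 4.0.16 (quasi-likelihood test, TMM factors 0.987 to 1.025, filterByExpr) in R 4.3.3, with all 9 libraries in 1 fit, no block, and Benjamini-Hochberg adjustment over 5119 genes; the scripts were tested on simulated data. With 16469576 to 20013351 counts per library, libraries of 1 group differed by more than sampling noise (chi-square per degree of freedom 2.96 to 9.70), so none was a repeat deposit. Alternatives were other scalings, other count filters, DESeq2 1.42.0, a fold threshold, fits of 2 groups, the replicate block and leaving out each library. A further alternative, chosen after seeing the data, left out genes with at least 50% of their exon bases overlapped by other genes of the deposited tables. Overlaps and upstream sequences came from the ASM294v3 reference by locus tag, which matched all 48 genes and 5109 of 5212 identifiers. Genes, lists and the rule for which genes get values per library were chosen with earlier results of these data known. That rule took rip1, cyt1, cyc1, nde1 and nde2 and the 3 largest changes in E112K clr6-1 per class. Genes that moved against their class or in opposite directions are named with their values. Of these cox13 and atp2 have values per library as well, beyond that rule.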

Additional observations from a re-analysis of the deposited data

How the results depend on the processing

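The falls in E112K clr6-1 kept their direction and their count, within 1.5 times, under every other scaling, filter, tool and left-out library. A 1.5-fold threshold beside the adjusted p lowered all counts: to 1 higher and 18 lower of the 48 genes and 1523 genes in all for E112K clr6-1 against WT, to 1 higher, 13 lower and 1041 in all for E112K clr6-1 against E112K, and to 0 higher, 0 lower and 992 in all for E112K against WT. In E112K against WT the genes that rose numbered 9 with library totals in place of TMM scaling, where 35.1% of all genes rose. Leaving out 1 library gave 9 (without E112K replicate 3, 35.9% of all genes) to 17 (without E112K replicate 1, 36.1% of all genes). The median of the 48 genes in E112K clr6-1 against E112K ranged from -0.43 to -0.34 over left-out libraries, its upper end without E112K clr6-1 replicate 3. The cause of these shifts was not tested.

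Signs turned for log2 fold changes that had not passed the test. As reported these lay between -0.05 and 0.052, apart from those of the sparsely counted cox7 (-0.29 in E112K against WT and -0.43 in E112K clr6-1 against E112K), and among the turned values 0.19 for cyc1 in E112K against WT passed the test without E112K replicate 1. In E112K against WT, RLE scaling gave 0.000 for qcr8 and 0.002 for cyc1, upper-quartile scaling -0.002 for atp23 and 0.00 for atp25, library totals -0.006 for qcr2, -0.004 for atp15, -0.001 for atp19, -0.014 for atp23 and -0.013 for atp25, a strict filter 0.004 for qcr8 and 0.006 for cyc1, and DESeq2 0.00 for cyc1. In E112K clr6-1 against WT library totals gave -0.002 for cox8. Over left-out libraries the ranges in E112K against WT were -0.069 to 0.094 for qcr8, -0.61 to 0.18 for cox7, -0.026 to 0.054 for atp23, -0.16 to 0.19 for cyc1, -0.025 to 0.15 for cox8, -0.11 to 0.092 for atp15, -0.045 to 0.072 for atp19, -0.13 to 0.014 for cox1101, -0.017 to 0.031 for atp25, -0.004 to 0.12 for qcr1 and -0.016 to 0.048 for qcr2. Those in E112K clr6-1 against WT were -0.065 to 0.13 for cox8, -0.074 to 0.057 for cox17 and -0.12 to 0.036 for atp10. Those in E112K clr6-1 against E112K were -0.088 to 0.030 for atp12, -0.12 to 0.036 for cox8, -0.10 to 0.044 for nde1 and -1.10 to 0.048 for cox7.

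Same-numbered libraries of different groups did not deviate together (correlations from -0.17 to 0.18 over 9 pairs, against -0.24 to 0.26 over 18 pairs of different number). With 3 libraries per group this cannot exclude that same-numbered samples were handled together, and the labels do not say. With the replicate number as a block, 14 genes rose and 15 fell in E112K against WT, 5 and 35 in E112K clr6-1 against WT, and 5 and 36 in E112K clr6-1 against E112K. Over all genes 37.1% rose and 38.6% fell in the first of these, 41.6% and 41.8% in the second, and 40% and 38.4% in the third. A 300-base window that runs past the gene start held CCAAT in 54.2%, TGACGT in 6.2% and CCCCTC in 6.2% of the 48 genes, against 42.2%, 5.9% and 2.1% of all protein-coding nuclear genes. Depth limits cox7 above all, at 1 to 21 counts per library. Opposite-strand genes of the deposited tables cover at least 50% of the exon bases of rip1, qcr9, cox8, atp1, atp10, atp12 and atp25. Reads of these genes could be shared if counting ignored strand. With every annotated gene of the reference included, on either strand, 43 of the 48 genes have exon bases overlapped. The overlap reaches 91.5% of the exon bases of cyt1, 90.5% for cox4 and 72.8% for qcr1, so the limit is not confined to those named above.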
